A study of Homo sapiens with 6 samples.

Results

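The 35 genes described here belong to the integrated stress response, whose transcription factor is ATF4, and to the unfolded protein response of the endoplasmic reticulum. They were taken by gene symbol from the 13696 distinct genes of the deposited expression table, and all 35 were found. RNA came from the human cell line hTERT RPE-1, retinal pigment epithelium immortalised with telomerase. In 3 libraries the cells were untreated. In the other 3 they had received a pre-dose of 25 nM camptothecin, which traps topoisomerase 1 on DNA, for 1 h, and the harvest followed 24 h later. The sample titles of both groups also carry the tag "Top1", which they do not explain. Separate cultures for the replicates, or a single clone for the line, are not stated in the labels. The p-values therefore rest on the spread among these 6 libraries alone, which may be technical.

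Unfolded protein in the endoplasmic reticulum is sensed by 3 membrane proteins. PERK, encoded by EIF2AK3, phosphorylates the initiation factor eIF2, which slows translation in general and favours translation of ATF4 mRNA. ATF4 then drives genes of amino acid synthesis and redox balance. IRE1, encoded by ERN1, splices XBP1 mRNA, and ATF6 is cleaved to release a transcription factor. XBP1 and ATF6 raise chaperones, disulphide isomerases and the machinery that removes misfolded proteins. Other kinases, which answer to amino acid shortage, haem shortage and double-stranded RNA, feed into ATF4 without XBP1 or ATF6. The members were therefore read as 3 sensors, an ATF4 branch of 17 genes and an endoplasmic reticulum (ER) branch of 15 genes. Only mRNA levels were measured, not XBP1 splicing, eIF2 phosphorylation or ATF4 protein, and in bulk RNA fewer expressing cells and less RNA per cell cannot be told apart.

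Promoter elements known for the 2 branches were searched, and a few are printed. No element was held by the whole of its branch. Among the members, the ER stress elements below matched in the ER branch only, and the ATF4 element matched in both branches. RefSeq promoter windows (GRCh38.p14), from 250 bases before to 50 bases after each start, were found for 33 of the 35 members, all but PSPH and SHMT2. Capitals mark the element, each sequence is given on the strand of its gene, and both strands were searched (in CALR and CHAC1 the element lies on the opposite strand and appears reversed). The ER stress element ERSE, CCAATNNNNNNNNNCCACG, through which ATF6 acts, was present in 7 of 15 ER branch members (CALR, CANX, CRELD2, HSP90B1, HSPA5, PDIA6 and XBP1) and in 0 of 15 ATF4 branch members with a window. Of all 27305 genes with a window, 0.0916% held it, and of all windows 0.0769%. Of 57 further ER-arm genes with a window, a list taken up below, 2 held it. The second form, ERSE-II, ATTGGNCCACG, was present in HERPUD1 and SDF2L1, and in 0.0696% of all genes and 0.0541% of all windows. The ERSE and ERSE-II matches did not overlap each other. In the lines below, XBP1 is the ER branch member with the lowest difference after the pre-dose, and HSPA5, CALR and HERPUD1 are holders of an element that differed little.
XBP1 (chr22:28800598-28800719, minus strand): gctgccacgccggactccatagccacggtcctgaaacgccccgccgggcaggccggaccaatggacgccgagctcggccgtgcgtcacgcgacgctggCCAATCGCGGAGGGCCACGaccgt
HSPA5 (chr9:125241344-125241493, minus strand): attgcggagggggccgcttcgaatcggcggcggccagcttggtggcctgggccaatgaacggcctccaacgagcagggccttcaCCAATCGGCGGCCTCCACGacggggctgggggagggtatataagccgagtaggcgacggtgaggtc
CALR (chr19:12938372-12938414, plus strand): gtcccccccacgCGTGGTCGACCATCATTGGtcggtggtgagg
HERPUD1, ERSE-II (chr16:56932013-56932047, plus strand): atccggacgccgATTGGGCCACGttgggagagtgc

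The composite element of C/EBP and ATF factors that ATF4 binds, called CARE and searched as TGATGNAA, was present in 4 of 15 ATF4 branch members with a window (ASNS, ATF3, CEBPG and CHAC1). It was also present in 1 ER branch member, HERPUD1, and in 14 of 34 further ATF4-arm genes with a window, a list taken up below. This short element is common, in 4.46% of all genes and 3.62% of all windows. The core of the unfolded protein response element, TGACGTGG, was in 0 member windows and in 0.927% of all genes and 0.729% of all windows. The ASNS, CHAC1 and CEBPG elements are shown, of which ASNS and CHAC1 had the 2 lowest differences of the ATF4 branch and CEBPG differed by -0.08. The remaining holder, ATF3, is not shown and differed by 0.08, so the printed lines do not tie the element to a direction. The ASNS and CHAC1 stretches overlap an exon annotated in GENCODE.
ASNS (chr7:97872458-97872487, minus strand): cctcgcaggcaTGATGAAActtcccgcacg
CHAC1 (chr15:40953251-40953280, plus strand): ctcccctgccgTTGCATCActcctgccagg
CEBPG (chr19:33374059-33374090, plus strand): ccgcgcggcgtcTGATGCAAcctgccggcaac
A match describes these letters only, and a window without a match says nothing about the factor.

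All 35 members passed the filter of a mean of at least 1 CPM (counts scaled to one common library total), and 29 had a mean of at least 10 CPM. The effective library totals were 26336941 to 31780391 reads, at which 3 counts correspond to 0.0944 to 0.114 CPM, a limit for counting error only. Both replicate 1 libraries stood apart from the other 4. Of the 13616 genes tested, 20.3% were higher and 20.6% lower in replicate 1 at an adjusted p of 0.05 in limma with treatment in the model, so values are given for each replicate pair below. The labels name no batch. Of 13 pigment epithelium markers, BEST1, MITF, OTX2, KRT8 and KRT18 had values, and the other 8, RPE65 and RLBP1 among them, were not among the genes analysed here. Of 11 markers of other cells, SNAP25 had values, with a mean of 1.22 CPM in untreated and 1.49 CPM in pre-dose libraries.

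ATF4, XBP1 and MANF were lower after the pre-dose in each replicate pair, by amounts that passed a test in some analyses and not in others, and the members lay on both sides of 0. In the comparison over all 6 libraries (limma-trend on log2(CPM + 1)), 0 of 35 members passed an adjusted p of 0.05, as did 0% of all genes. At an unadjusted p under 0.05, 2 members stood out, ATF4 and XBP1, both lower, against 2.06% of all genes. The median difference, pre-dose minus untreated on the log2(CPM + 1) scale, was -0.03 over the members and -0.0013 over all genes tested. In the authors' deposited table ATF4, XBP1 and MANF fell, 3 of 35 members at an adjusted p of 0.05, and 0 rose, against 1.44% of all genes lower and 1.61% higher there. The 2 analyses used the same libraries, and the authors' model is not given in the sources used here.

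**Figure D1:**
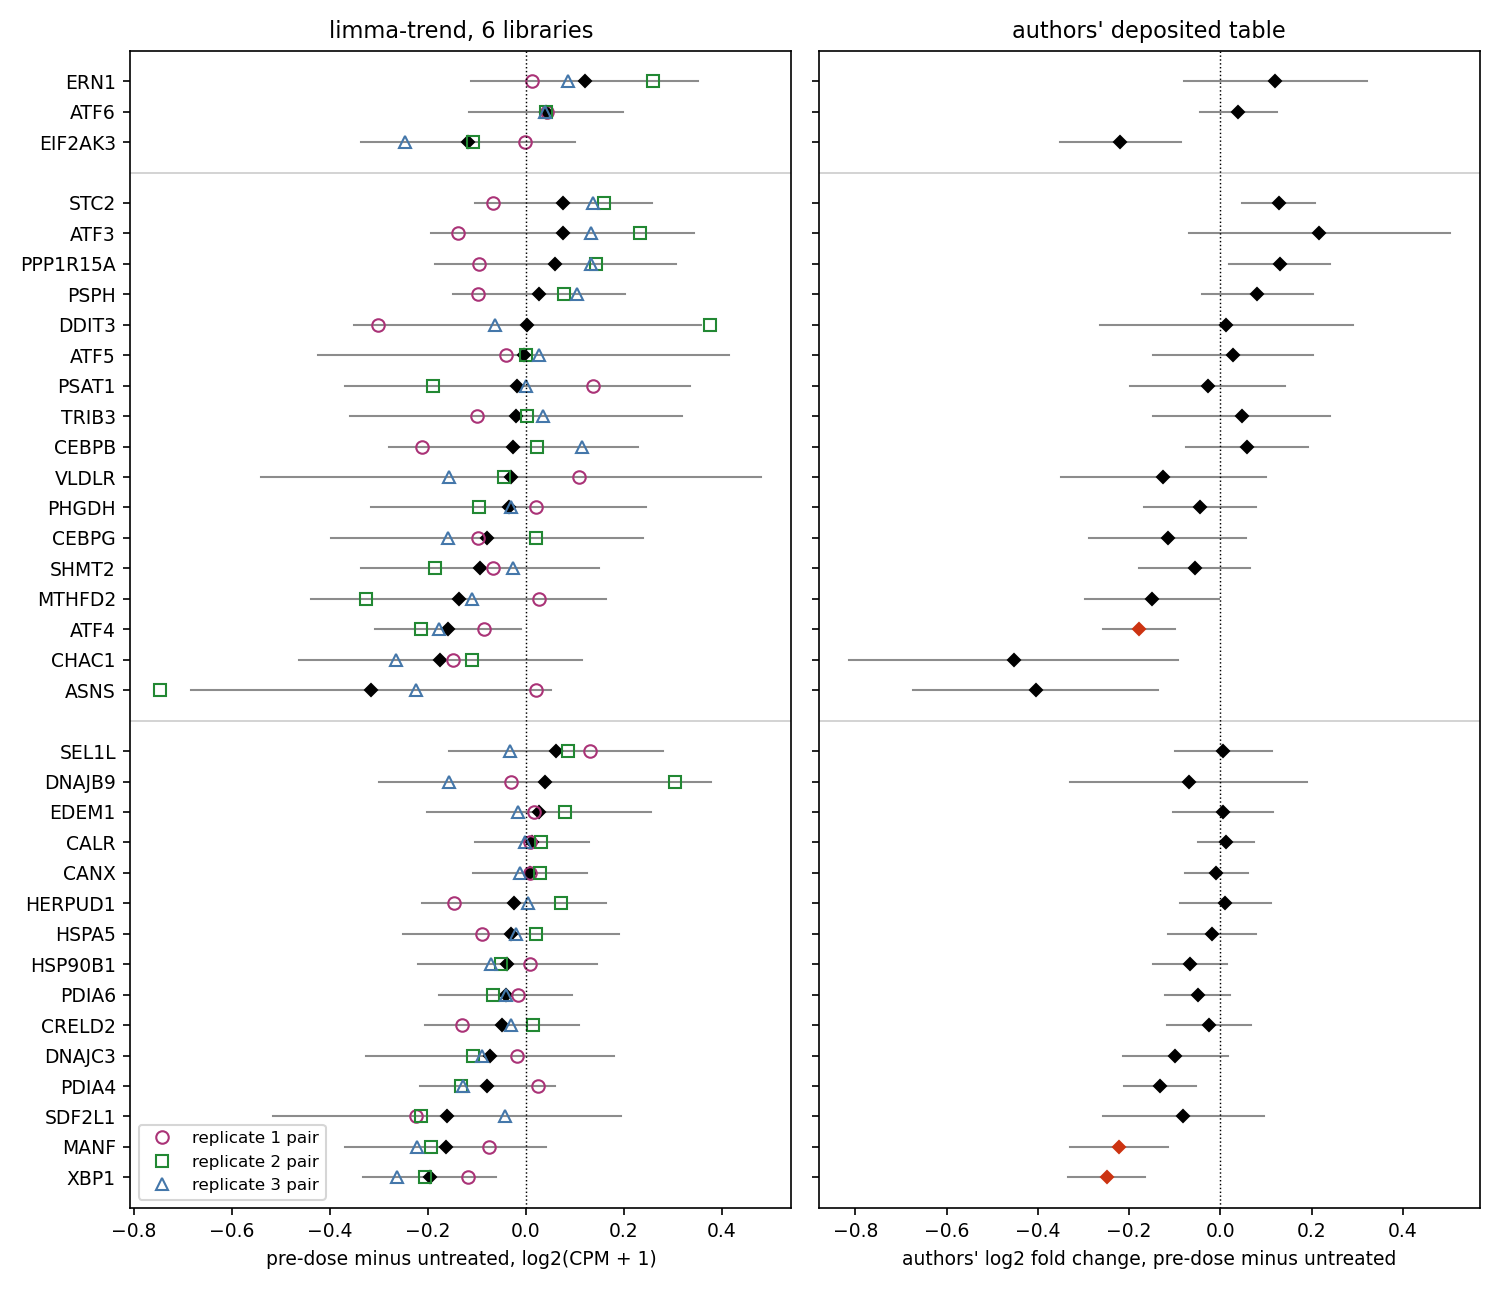
Difference of each member after the pre-dose, with sensors at the top, the ATF4 branch in the middle and the ER branch at the bottom. Left, limma-trend on log2(CPM + 1): diamonds are the difference over 6 libraries, lines its 95% interval and open symbols the 3 replicate pairs. Right, the log2 fold changes and 95% limits of the authors' deposited table, with members past an adjusted p of 0.05 in red: these are ATF4, MANF and XBP1, all below 0.

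ATF4 (chromosome 22, 39519695 to 39522685, GRCh38), the central factor of the integrated stress response, had 197, 189.9 and 192 CPM in untreated replicates 1, 2 and 3. It had 186, 164 and 170.1 CPM in the pre-dose libraries of the same numbers. All 3 pre-dose libraries were below all 3 untreated ones, with the replicate 1 library nearest to them. The difference was -0.16 ± 0.063 (SE) on the log2(CPM + 1) scale, with a 95% interval of -0.31 to -0.01 and an adjusted p of 1.00 in limma. The authors' deposited table gave a log2 fold change of -0.18 (95% limits -0.26 to -0.10, adjusted p = 0.0373). GENCODE names 4 processed copies of ATF4, whose reads the counting could have shared. It names such copies for 6 members, the others being XBP1, ASNS, PSAT1, PSPH and MTHFD2.

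XBP1 (chromosome 22, 28794555 to 28800597), the factor made by IRE1 splicing, had 53.7, 54.8 and 55.4 CPM in the untreated libraries and 49.4, 47.4 and 46.0 CPM in the pre-dose libraries. The groups did not overlap, and each pair was lower. Its difference was -0.20 ± 0.058 (SE), with an interval of -0.33 to -0.06 and an adjusted p of 1.00 in limma. In the authors' deposited table it was -0.25 (adjusted p = 0.0295). MANF (chromosome 3, 51385047 to 51389397), a secreted ER stress protein that binds HSPA5, had 55.7, 51.9 and 50.8 CPM in untreated and 52.8, 45.3 and 43.3 CPM in pre-dose libraries. Its groups overlapped, because the replicate 1 pre-dose library was above untreated replicates 2 and 3, although each pair was lower. The difference of MANF was -0.16 ± 0.087 (SE), with an interval of -0.37 to 0.04, against -0.22 (adjusted p = 0.0467) in the authors' deposited table.

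**Figure D2:**
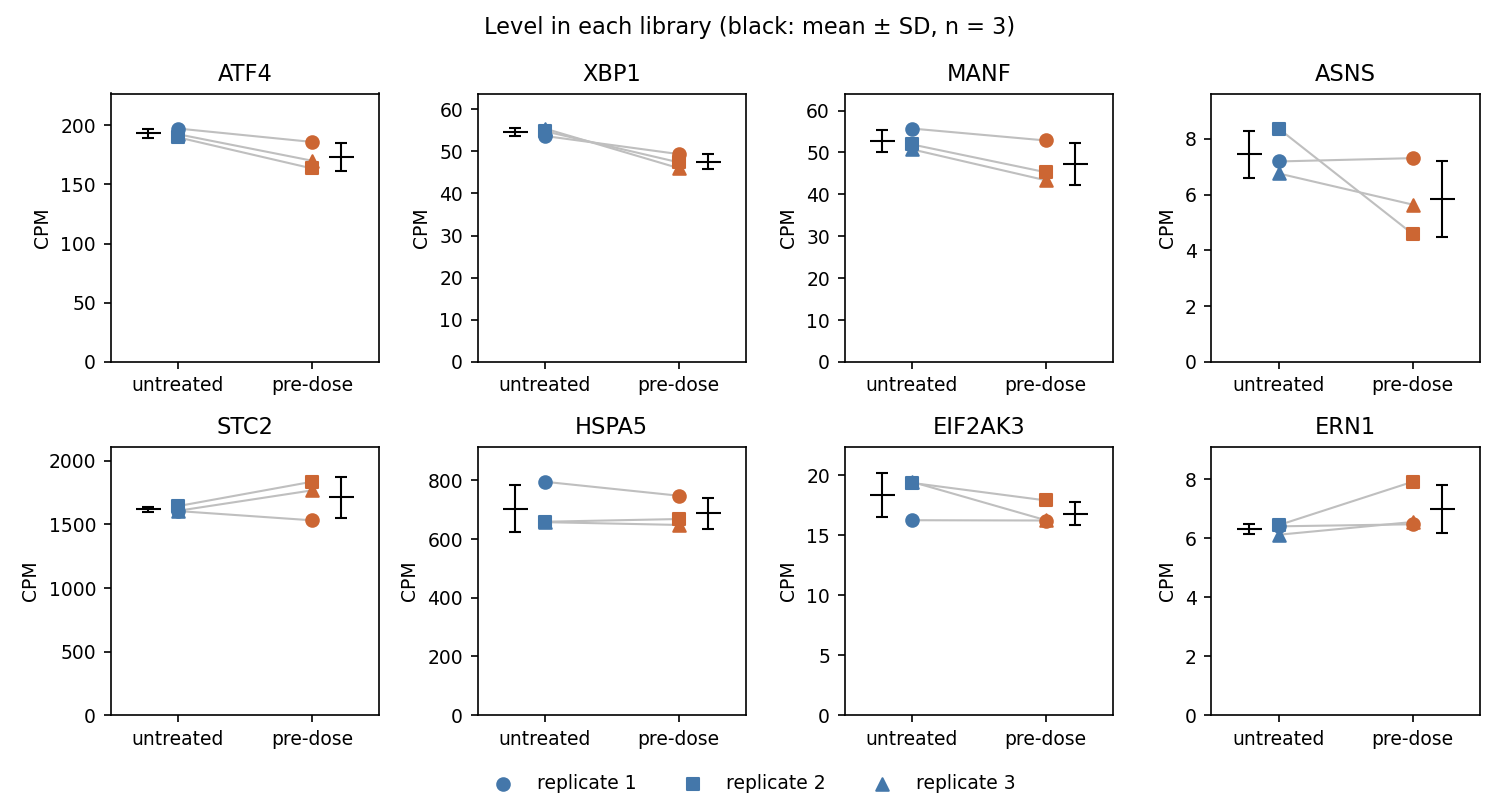
CPM of 8 members in each library, on axes that start at 0. Blue symbols are untreated and orange symbols pre-dose libraries, grey lines join libraries of the same replicate number, and black bars are the mean ± SD (n = 3). The lines of ATF4, XBP1, MANF and EIF2AK3 slope down in each of the 3 pairs and those of ERN1 up. For EIF2AK3 and ERN1 the replicate 1 line is nearly level. The lines of ASNS, STC2 and HSPA5 do not share a direction.

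These 3 members were called in some other fits and not in others. With the replicate number as a block, 0 members and 0% of all genes passed, and 6 members, against 10.6% of all genes, had an unadjusted p under 0.05. ATF4, XBP1 and MANF were among the 6, with adjusted p values of 0.274, 0.275 and 0.344 in limma, and ASNS, SHMT2 and SDF2L1 were the others, all lower. Replicates 2 and 3 alone gave 4 lower members, ATF4, XBP1, MANF and ASNS, and 1 higher, STC2, against 3.47% of all genes lower and 2.89% higher. Voom with library quality weights, which gave the replicate 1 libraries the lowest weights, called XBP1 (adjusted p = 0.0429) and 0 members as higher, against 0.308% of all genes lower and 0.485% higher. With the block added to those weights, ATF4, XBP1 and MANF were called lower (adjusted p = 0.0310, 0.0361 and 0.0484 in limma) and 0 members higher, against 1.19% and 1.36% of all genes.

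The sensors showed no shared direction. EIF2AK3 (PERK) had 16.3, 19.4 and 19.5 CPM in untreated and 16.2, 17.9 and 16.3 CPM in pre-dose libraries. The untreated replicate 1 library was as low as the pre-dose ones, so the groups overlapped, and the difference was -0.12 ± 0.093 (SE). ERN1 (IRE1) had 6.40, 6.44 and 6.11 CPM in untreated and 6.47, 7.91 and 6.54 CPM in pre-dose libraries, a difference of 0.12 ± 0.098 (SE). The ERN1 groups did not overlap, but by a margin of hundredths of a CPM, with pre-dose replicate 2 alone well above the rest. ATF6 had 67.4, 74.1 and 73.4 CPM in untreated and 69.5, 76.3 and 75.5 CPM in pre-dose libraries. Its 3 pair differences were nearly equal, each 0.04 on the log2 scale, and its groups overlapped because both replicate 1 libraries were lower. None of the 3 passed in limma, nor in the authors' deposited table, with adjusted p values of 0.0741, 0.444 and 0.565 there.

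Of the whole set, groups did not overlap for 2 members that were lower, ATF4 and XBP1, and 1 that was higher, ERN1, against 3.19% and 3.36% of all genes. Each pair was lower for 9 members and higher for 2, against 16.3% and 15.6% of all genes. The 9 were ATF4, SHMT2, CHAC1, EIF2AK3, XBP1, MANF, SDF2L1, DNAJC3 and PDIA6, and the 2 were ERN1 and ATF6.

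In the ATF4 branch none of the regulators downstream of ATF4 passed in limma or in the authors' deposited table, and their intervals were wide. DDIT3, the factor CHOP that is raised by prolonged stress, had 7.50, 5.36 and 5.58 CPM in untreated and 5.90, 7.25 and 5.30 CPM in pre-dose libraries. The groups overlapped, the replicate 1 and 2 pairs went opposite ways by -0.30 and 0.38, and the difference was 0.0032 with an interval of -0.35 to 0.36. By GENCODE, 27.2% of the exon bases of DDIT3 overlap exons of MARS, a methionyl-tRNA synthetase gene, and the strand setting of the counting is not given. Exons of 15 members overlap another gene, those of MTHFD2, PDIA6 and ATF5 by 27.2%, 25.2% and 21.2% of their bases. ATF3, a stress-induced repressor, was near the lower end of the set with 1.78, 1.61 and 1.60 CPM in untreated and 1.53, 2.07 and 1.85 CPM in pre-dose libraries. That is 42 to 62 reads a library, and its difference of 0.08 ± 0.11 (SE) was within the spread. The other regulators were ATF5, TRIB3 (a pseudokinase that restrains ATF4 and CHOP), PPP1R15A (the GADD34 subunit that dephosphorylates eIF2), CEBPB and CEBPG (partners of ATF4 on DNA). Their differences ran from -0.08 for CEBPG to 0.06 for PPP1R15A, with intervals as wide as -0.42 to 0.41 for ATF5. This fit has no replicate term, so its intervals also hold the offset of the replicate 1 libraries. The pair differences of ATF5 were -0.04, 0.00068 and 0.03, and those of TRIB3 -0.10, 0.0023 and 0.03. Those of CEBPB ranged more widely, at -0.21, 0.02 and 0.11.

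The amino acid and one-carbon enzymes were below 0 in 5 of 6 cases, without a call in limma over 6 libraries. ASNS, the asparagine synthetase and a classical ATF4 target, had 7.19, 8.37 and 6.76 CPM in untreated and 7.31, 4.59 and 5.64 CPM in pre-dose libraries. Pre-dose replicates 2 and 3 were the lowest libraries of all 6, while the replicate 1 pair was level. Its difference of -0.32 ± 0.16 (SE) was the lowest of the 35, with an interval of -0.68 to 0.05, and the pair differences were 0.02, -0.75 and -0.22. The authors' deposited table gave -0.41 (adjusted p = 0.0890), and replicates 2 and 3 alone gave -0.49 (adjusted p = 0.0476 in limma). The values rest on 138 to 232 reads a library, and 44.6% of the ASNS exon bases overlap another annotated gene.

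The serine enzymes PHGDH, PSAT1 and PSPH differed by -0.04, -0.02 and 0.03. The mitochondrial one-carbon enzymes SHMT2 and MTHFD2 differed by -0.09 and -0.14. In the replicate 2 pair 5 of these 6 enzymes were below 0, with a median of -0.19, against medians of 0.02 and -0.03 in the replicate 1 and 3 pairs. MTHFD2 there was -0.33 and SHMT2 -0.19, so the low values of the enzymes lay mainly in 1 pair.

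Among the remaining ATF4 branch effectors, CHAC1, which degrades glutathione, had 1.07, 1.39 and 1.30 CPM in untreated and 0.865, 1.21 and 0.916 CPM in pre-dose libraries. Each pair was lower but the groups overlapped, and the 27 to 39 reads a library make the difference of -0.17 ± 0.12 (SE) imprecise. At this low level the pseudocount sets the size: with 0.1 CPM in place of 1 CPM the CHAC1 difference was -0.31, and on the deposited log2 CPM values -0.34. The authors' deposited table gave CHAC1 -0.45 (95% limits -0.81 to -0.09, adjusted p = 0.135). STC2, a secreted glycoprotein, had 1605, 1644 and 1607 CPM in untreated and 1532, 1836 and 1768 CPM in pre-dose libraries. The replicate 1 pair was lower and the others higher, and the difference was 0.08 ± 0.077 (SE). VLDLR, a lipoprotein receptor, differed by -0.03 ± 0.22 (SE), and its replicate 1 libraries held 12.1 and 13.1 CPM against 18.0 to 20.2 CPM in the others.

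In the ER branch the lowest differences were those of XBP1, MANF and the cochaperone SDF2L1, and 0 chaperones other than MANF passed in limma or in the authors' deposited table. HSPA5, the chaperone BiP that is the standard readout of ER stress, had 795, 659 and 658 CPM in untreated and 748, 668 and 648 CPM in pre-dose libraries. Both replicate 1 libraries were above the other 4, the groups overlapped, and the difference was -0.03 with an interval of -0.25 to 0.19. CALR and CANX, the lectin chaperones of the glycoprotein folding cycle, had the narrowest intervals of the set. CALR differed by 0.01 (-0.10 to 0.13) and CANX by 0.0082 (-0.11 to 0.12). HSP90B1, the ER form of HSP90, differed by -0.04, and CRELD2, a secreted stress protein, by -0.05.

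DNAJB9, a cochaperone of HSPA5 that restrains IRE1, had 6.53, 7.42 and 7.63 CPM in untreated and 6.37, 9.40 and 6.74 CPM in pre-dose libraries. Pre-dose replicate 2 held the most of the 6, the groups overlapped, and the difference was 0.04 ± 0.14 (SE). The cochaperones DNAJC3 and SDF2L1 differed by -0.07 and -0.16, and each pair was lower for both. The isomerases PDIA4 and PDIA6, which form disulphide bonds, differed by -0.08 and -0.04. SEL1L, the scaffold of ER-associated degradation, had 75.3, 89.0 and 92.2 CPM in untreated and 82.5, 94.6 and 90.2 CPM in pre-dose libraries, and differed by 0.06 ± 0.093 (SE). EDEM1, which extracts misfolded glycoproteins, and HERPUD1, of the degradation complex, differed by 0.03 and -0.02, so the degradation genes lay on both sides of 0.

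Set side by side, the 2 branches had similar medians, -0.03 in the ATF4 branch and -0.04 in the ER branch. Below 0 were 12 of 17 and 10 of 15 members, against 6890 of the 13616 genes tested. Neither branch had a call over 6 libraries. The replicate pairs are given next, without a test. The ATF4 branch medians were -0.08, 0.00068 and -0.03 in the replicate 1, 2 and 3 pairs, and those of the ER branch -0.02, 0.01 and -0.04. For 11 of 17 ATF4 branch members, and 3 of 15 of the ER branch, the replicate 1 pair had the opposite sign to both others, against 32.8% of all genes. All 8 ATF4 branch regulators were below 0 in the replicate 1 pair, whereas 1 of 8 was in the replicate 2 pair and 3 of 8 in the replicate 3 pair. In the ER branch 14 of 15 members were below 0 in the replicate 3 pair, against 9 and 7 in the replicate 1 and 2 pairs. Of the 13616 genes tested, 7026, 6901 and 6746 were below 0 in the replicate 1, 2 and 3 pairs. Each pair sets 1 library against 1 other, so genes within a pair are not independent. No test of the branches against each other was made, as members are not replicates of a condition.

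Members with and without an element overlapped in their differences. The 9 ER branch members with ERSE or ERSE-II had a median difference of -0.04, from -0.20 (XBP1) to 0.01 (CALR), and the 6 without had -0.02. The 4 ATF4 branch members with CARE had a median of -0.13, from -0.32 (ASNS) to 0.08 (ATF3), and the 11 with a window and no CARE -0.02. These are descriptions of small sets.

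For 34 of 35 members the whole 95% interval lay within a 1.5-fold change in either direction on the log2(CPM + 1) scale, ASNS being the exception. For 12 it lay within a 1.2-fold change. Changes of 1.2-fold could therefore be missed in most members in this fit. It has no replicate term, so the spread behind these intervals includes the replicate 1 offset that both groups share. ATF6, for example, had an SE of 0.067 although each of its pair differences was 0.04. Intervals that use the pairing are not given here. The added 1 CPM compresses the fold of low genes, so for CHAC1 and ATF3 such an interval is no bound on expression, and the limits for CHAC1 in the authors' deposited table pass 1.5-fold. A p that missed the threshold does not show that the members did not differ.

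The replicate 1 libraries differed from the others by more than the pre-dose libraries differed from the untreated, with offsets in both directions. In limma with treatment in the model, 8 of 17 ATF4 branch members were higher and 2 lower in replicate 1 at an adjusted p of 0.05, against 20.3% and 20.6% of all genes. In the ER branch 3 of 15 were higher and 5 lower, the first a share near that of all genes. ATF5, a factor related to ATF4, had the highest offset, 0.48 ± 0.047 (SE, adjusted p = 8.7e-05 in limma), with 72.0 and 69.98 CPM in the replicate 1 libraries against 49.0 to 52.6 CPM in the others. PSAT1, PHGDH, MTHFD2 and SHMT2 stood higher by 0.36, 0.30, 0.29 and 0.24, CEBPG and TRIB3 by 0.33 each and PPP1R15A by 0.23. VLDLR stood lower by -0.58 and CEBPB by -0.21. In the ER branch HSPA5, SDF2L1 and MANF stood higher by 0.23, 0.37 and 0.18, whereas DNAJC3, EDEM1, SEL1L, HSP90B1 and PDIA6 stood lower by -0.27, -0.23, -0.21, -0.17 and -0.09. Of the sensors, ATF6 stood lower by -0.13. ATF4 and XBP1 did not pass, with offsets of 0.10 and 0.02. What set replicate 1 apart was not tested, and the labels give nothing to test it with.

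**Figure D3:**
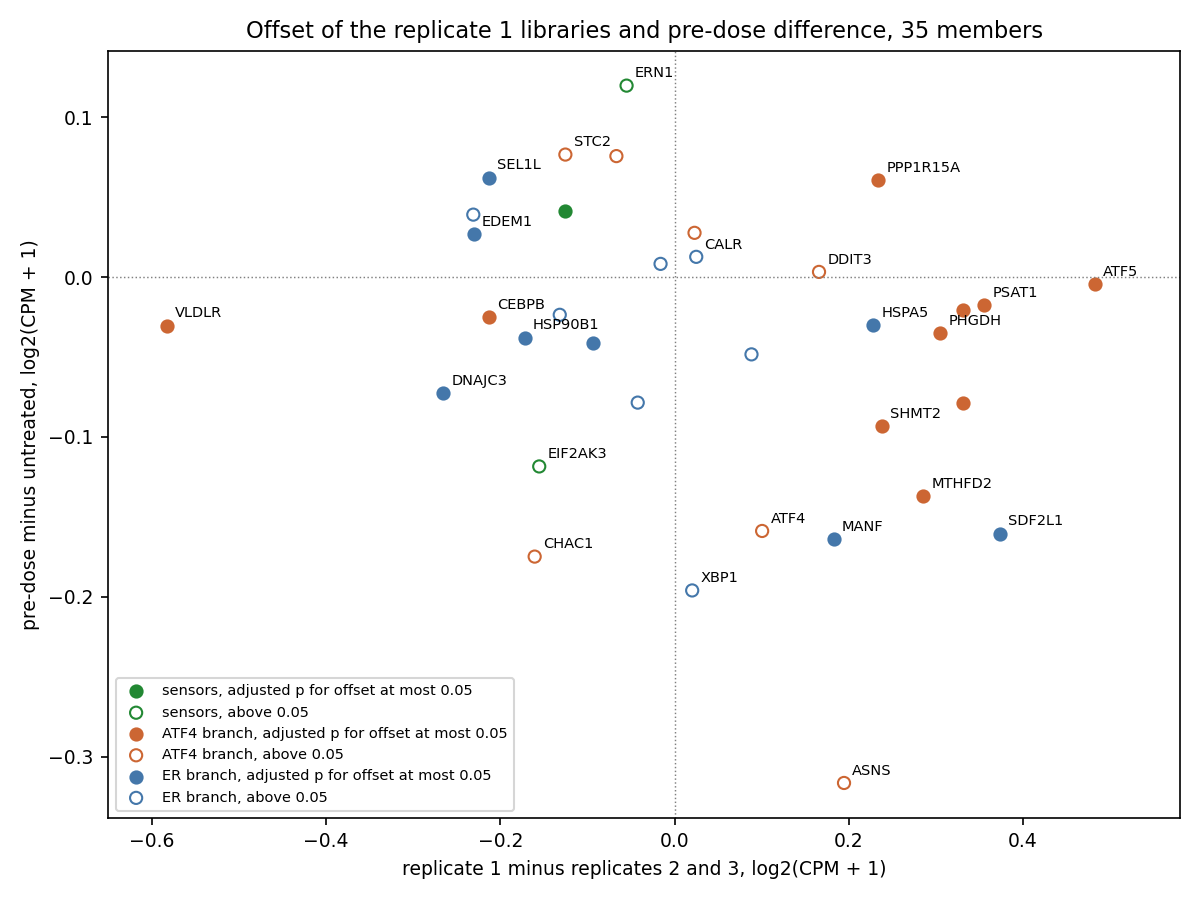
Offset of the replicate 1 libraries (horizontal axis) and pre-dose difference (vertical axis) of the 35 members, both on the log2(CPM + 1) scale from limma. Filled symbols passed an adjusted p of 0.05 for the offset and colours give the branch. The offsets run from -0.58 (VLDLR) to 0.48 (ATF5), a wider range than the pre-dose differences, from -0.32 (ASNS) to 0.12 (ERN1).

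Levels per length ordered the members over 3 decades on average over the 6 libraries. Per kb of merged exon (GENCODE 29), CALR was the highest with 537 CPM per kb, followed by STC2 with 272. HSPA5 and HSP90B1, at 178 each, did not differ beyond their spread over libraries. CANX had 99.9 and ATF4 72.9 CPM per kb, so ATF4 mRNA was the most abundant per length of the transcription factors in the set, with libraries that overlapped those of PDIA6, and ahead of CEBPB with 44.8, ATF5 with 19.4 and XBP1 with 16.9. The lowest were ERN1 with 0.612, CHAC1 with 0.546 and ATF3 with 0.431 CPM per kb, and libraries of neighbours in that order overlapped. Merged exon length includes exons these cells may not use, so the order is approximate.

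**Figure D4:**
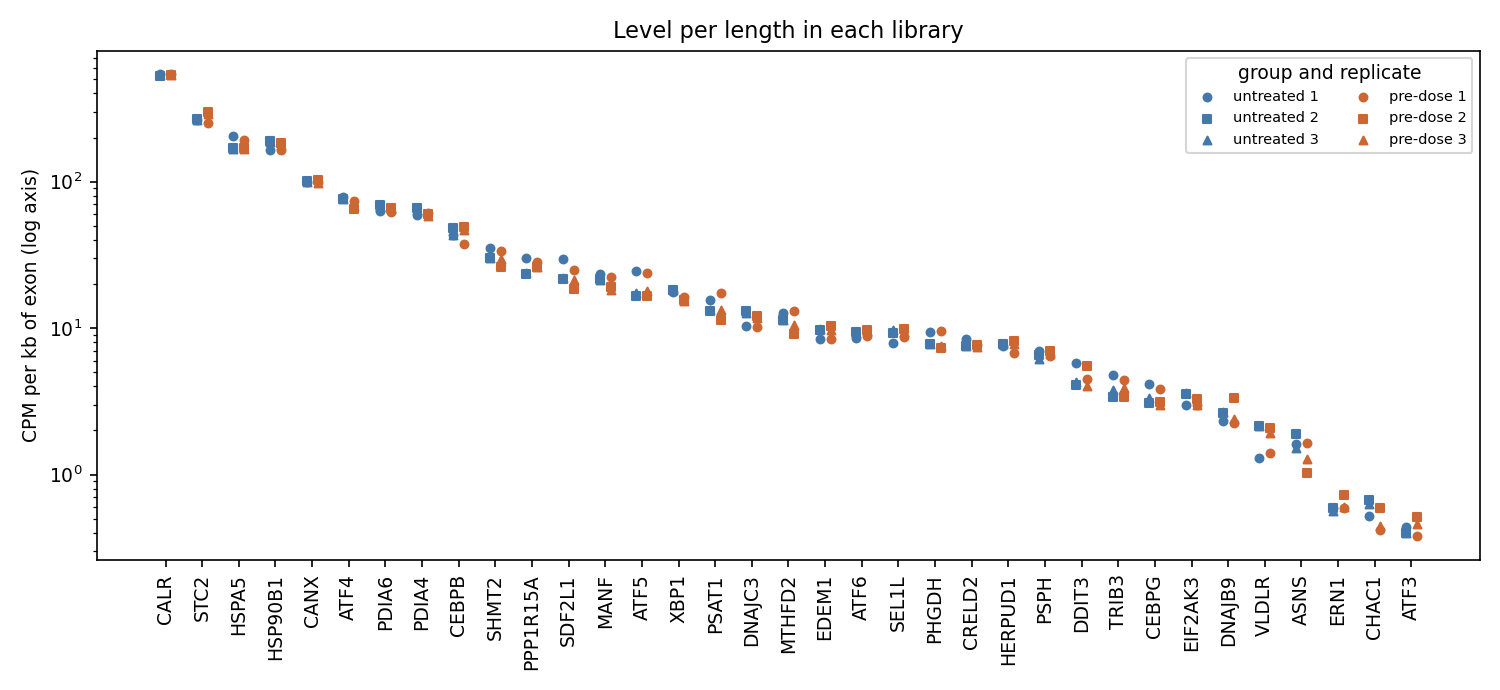
Level of each member in each library in CPM per kb of merged exon, on a log axis, ordered by the mean over 6 libraries. Blue is untreated, orange is pre-dose, and the symbol gives the replicate. CALR is the highest with a mean of 537 CPM per kb and ATF3 the lowest with 0.431, and within most members the 6 libraries lie close together beside the differences between genes.

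Of 44 further ATF4-arm genes 39 were measured, and in limma over 6 libraries 0 passed, with a median difference of -0.05. Each pair was lower for 16 of the 39 and higher for 9, against 16.3% and 15.6% of all genes. Groups did not overlap for 6 that were lower and 1 that was higher, against 3.19% and 3.36% of all genes. With the replicate block 15 had an unadjusted p under 0.05, against 10.6% of all genes, and 0 passed. In the authors' deposited table PYCR1 and YARS1 fell, and SESN2, BBC3 and TNFRSF10B rose, against 1.44% of all genes lower and 1.61% higher. PYCR1, a proline synthesis enzyme, went from 66.5 ± 3.36 to 58.3 ± 1.75 CPM (SD, n = 3 each), with groups that did not overlap, and YARS1, a tyrosyl-tRNA synthetase, from 129.7 ± 4.51 to 116 ± 10.3 CPM. BBC3, which encodes the cell death protein PUMA, went from 3.89 ± 0.495 to 7.72 ± 3.26 CPM (SD, n = 3 each). SESN2, a sestrin that restrains mTORC1, went from 11.8 ± 0.696 to 16.6 ± 4.34 CPM, and TNFRSF10B, a death receptor, from 114 ± 8.40 to 139.8 ± 26.3 CPM. These 3 are also known targets of p53. They were higher in each pair, least in replicate 1, where the pre-dose library was within the untreated range, and with replicates 2 and 3 alone they were the 3 called higher. The 4 called lower there were PYCR1, YARS1 and the amino acid transporters SLC7A5 and SLC7A1, against 3.47% of all genes lower and 2.89% higher, and the same 7 were called with the block and library weights. SLC7A5 had 580.3, 371 and 369.7 CPM in untreated and 562, 299 and 293 CPM in pre-dose libraries, so both replicate 1 libraries were far above the other 4. SLC7A1 had 165, 129 and 131 CPM in untreated and 162, 107 and 111 CPM in pre-dose libraries. Each pair was lower for both transporters, and the groups overlapped. JDP2, a repressor of the AP-1 family, differed by -0.18 with an unadjusted p of 0.0592.

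Of 19 genes of the eIF2 machinery (kinases, eIF2 and eIF2B subunits and phosphatases), all measured, 0 passed in limma or in the authors' deposited table. Their median was -0.03. PPP1CA and EIF2S1 had the smallest unadjusted p among the lower ones, with differences of -0.10 each, and EIF2AK2 and EIF2S3 among the higher ones, with 0.07 and 0.04. Of 68 further ER-arm genes, all measured, 0 passed in limma and DERL1, of the degradation channel, fell in the authors' deposited table (-0.18, adjusted p = 0.0461). That 1 of 68 is near the 1.44% of all genes lower there. DERL1 and KDELR3, a receptor that returns ER proteins, were the 2 called lower with replicates 2 and 3 alone, a share below that of all genes (3.47%). The median difference of all 68 genes in limma was -0.01. HYOU1, an ER chaperone whose promoter window holds an ERSE-II, differed by -0.11 and DNAJB11, a cochaperone of HSPA5, by -0.12, both among 5 of 68 that were lower without overlap, against 3.19% of all genes. WFS1, an ER membrane protein, and MBTPS2, the site-2 protease that cleaves ATF6, differed by 0.10 and 0.12.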

How the data were processed

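The authors deposited a single table for the 6 libraries, with expression values on a log2 scale of CPM. Libraries of polyadenylated RNA were read from both ends, per the labels' protocols. Tools named in the submitters' processing notes are bcl2fastq, DRAGEN, edgeR and limma, with hg38 as the build and no versions or roles. The table has 13773 rows, of which 77 repeated an identifier and were dropped. The lowest value of each column was read as 0 counts plus 0.5, which put every value under 200 reads at a multiple of a hundredth of a read (within 0.05 of that step), so these are estimated counts. The authors also deposited log2 fold changes, a moderated statistic (a score) and p-values, per the file headers. Their sign was untreated minus pre-dose and was turned here. Before turning, it matched that of the untreated minus pre-dose group means for 83.5% of genes. Among the members, ATF5, CEBPB, TRIB3, DNAJB9, HERPUD1 and CANX had opposite signs in the authors' fold changes and in limma-trend. None of these was called in either.

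The test, two-sided, was limma-trend on log2(CPM + 1). It took the 13616 genes whose mean reached 1 CPM, with Benjamini-Hochberg adjustment over all genes tested and a threshold of 0.05. R 4.3.3, limma 3.58.1 and matplotlib 3.10.9 were used. The fit was also run on simulated libraries with independent noise and planted changes larger than those of the members. That run held no shared replicate 1 offset, so it cannot show how the fit behaves with one. Effective library totals, worked back from the lowest value of each column, were 26336941 to 31780391 reads. Intervals cover the spread between libraries, the replicate 1 offset included. Alternatives were a replicate block, voom with and without library weights, replicates 2 and 3 alone, and other pseudocounts, filters, scalings and left-out libraries. The deviations of same-numbered libraries from their group means correlated by 0.664, 0.454 and 0.176 across genes, so the numbers were taken to pair them, although untreated replicate 3 and pre-dose replicate 2 reached 0.515. No 2 libraries agreed within sampling noise.

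Members, lists and alternatives were chosen with earlier results of these data known. Every member was named. Given in full were the main regulators and sensors, members past a threshold or without overlap, and the 2 highest and 2 lowest differences of each branch. Other pathway genes were named if past the threshold in limma-trend over 6 libraries or in the authors' deposited table, or among the 2 smallest unadjusted p in each direction. SLC7A5, SLC7A1 and KDELR3 were added after their values were seen. Gene models came from GENCODE 29 and promoters from RefSeq.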

Additional observations from a re-analysis of the deposited data

How the results depend on the processing

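Over all 6 libraries without weights, 0 genes and 0 members passed under voom, a replicate block, a pseudocount of 0.1 CPM, the deposited log2 values, no filter, a mean of at least 5 CPM (33 members left), median centring or quantile normalisation. Leaving out each library in turn gave 0 to 0 genes and 0 to 0 members. Voom with library weights called 108 genes and 1 member. The replicate block with those weights called 347 genes and 3 members, and the block alone 0. Replicates 2 and 3 alone called 866 genes and 5 members. There the ER branch median moved to -0.0076 and the ATF4 branch median minus the ER branch median to -0.0557, and that difference was -0.0314 with the block and weights. Leaving out 1 library moved the ATF4 branch median between -0.13 (without pre-dose replicate 1) and 0.0523 (without untreated replicate 1), the ER branch median between -0.0554 (without pre-dose replicate 2) and 0.0024 (without pre-dose replicate 1), and their difference between -0.13 and 0.089. The sign of both branch medians thus turned with 1 left-out replicate 1 library. Such a fit holds replicate 1 in 1 group only, so the replicate 1 offset and the pre-dose difference cannot be told apart there. How far the offset moved the medians was not tested. Without untreated replicate 1, 11 of 35 members changed sign. The replicate block alone leaves each difference as it was, because the groups hold the same replicate numbers, so it could change no sign. Low members, with 27 to 62 reads for CHAC1 and ATF3, are limited by counting.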
